A study of Mus musculus with 2 samples.

Results

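The guanylate-binding proteins (GBP) and the immunity-related GTPases (IRG) were examined through 10 genes, the GBP genes Gbp2, Gbp3, Gbp4, Gbp5 and Gbp7 and the IRG genes Irgm1, Irgm2, Igtp, Ifi47 and Iigp1. They were chosen by symbol, matched by Ensembl identifier, and all 10 were found among the 34745 gene rows of the table. The cells were macrophages differentiated from the marrow of C57BL/6 mice. They received an antisense oligonucleotide (ASO), a short strand that pairs with a target RNA, and lipopolysaccharide (LPS), a lipid of the bacterial outer membrane. The study compared a control ASO (Control-ASO) with an ASO named for Acly, the gene of the ATP-citrate lyase (AclyE14-ASO). LPS was given to both groups, so neither shows the unstimulated level of these genes. Each group was 1 library, and the sources used here do not give the dose, the duration or the number of animals.

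Both families are large GTPases made after interferon, and macrophages activated by LPS produce type I interferon that acts back on them. GBP proteins assemble as coats on pathogen vacuoles and on bacteria in the cytosol, where they bind LPS and help caspase-11 reach it. IRG proteins act on pathogen vacuoles too: Ifi47 and Iigp1 encode effector IRG proteins, whereas Irgm1, Irgm2 and Igtp encode the regulatory IRGM class that guards the cell's own membranes. Some GBP proteins, among them those of Gbp2 and Gbp5, carry a lipid tail made from isoprenoids, which the mevalonate pathway builds from acetyl-CoA, the product of ATP-citrate lyase.

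The letters around the RefSeq transcript starts were searched for interferon motifs. RefSeq windows of 300 bases (GRCm38.p6), from 250 before to 50 after the start of a transcript, were matched by symbol for 8 of the 10 members (not for Gbp4 and Iigp1), with 9 windows in all. The core of the interferon-stimulated response element, bound by IRF proteins, was searched as GAAA followed by any 2 bases and GAAA, and the gamma-activated site, an element of interferon gamma responses, as TTCNNNGAA, both on either strand. The first was present in 7 of the 9 member windows, those of 7 genes, and in 3.44% of all 32851 windows. The second was present in 4 of the 9, those of 4 genes, against 8.30% of all windows. The stretches below lie before the RefSeq start of the window of each of the 7 genes and are shown because they hold the response element matches. Capitals mark the matches to either motif. A further activated-site match in Gbp5, at -245 to -237, and another in Gbp7, at -106 to -98, lie outside the stretches shown. The sequences are written 5′ to 3′ on the strand of the gene. Each was kept to at most 30 bases that GENCODE M21 annotates as exonic, and the Irgm1 stretch is exonic throughout. GENCODE starts differ from RefSeq starts, so the Gbp5, Irgm1 and Irgm2 stretches and the match in Gbp2 lie within the gene coordinates given further on.
Gbp2, chr3:142620564-142620631, plus strand: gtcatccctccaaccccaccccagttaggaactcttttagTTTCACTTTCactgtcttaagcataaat
Gbp3, chr3:142559959-142560043, plus strand: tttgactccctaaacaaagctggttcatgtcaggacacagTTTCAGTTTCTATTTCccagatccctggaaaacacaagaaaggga
Gbp5, chr3:142496729-142496929, plus strand: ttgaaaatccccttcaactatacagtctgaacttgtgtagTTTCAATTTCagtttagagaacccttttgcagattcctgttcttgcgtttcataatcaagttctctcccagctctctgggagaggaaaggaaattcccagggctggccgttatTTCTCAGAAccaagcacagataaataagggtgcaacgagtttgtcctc
Gbp7, chr3:142530243-142530335, plus strand: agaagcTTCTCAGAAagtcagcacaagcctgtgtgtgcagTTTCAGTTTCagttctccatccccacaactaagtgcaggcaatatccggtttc
Irgm1, chr11:48871428-48871457, minus strand: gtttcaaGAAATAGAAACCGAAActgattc
Irgm2, chr11:58214873-58214976, plus strand: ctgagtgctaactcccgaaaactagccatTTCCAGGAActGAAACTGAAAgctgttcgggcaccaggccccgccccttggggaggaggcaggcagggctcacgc
Igtp, chr11:58199482-58199555, plus strand: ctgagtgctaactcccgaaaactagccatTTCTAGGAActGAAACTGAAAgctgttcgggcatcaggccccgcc

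In the GBP genes of chromosome 3 the response element core lay on the strand opposite to the gene, and in the IRG genes of chromosome 11 on the strand of the gene. In Gbp3 and Irgm1 a pair of matches overlapped each other. The Irgm2 and Igtp stretches were identical at 72 of the 74 bases they share, and in both the activated-site core stood directly before the response element core. For Ifi47 neither motif was found in its window. A match is a description of letters, not of binding, which was not measured here.

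**Figure D1:**
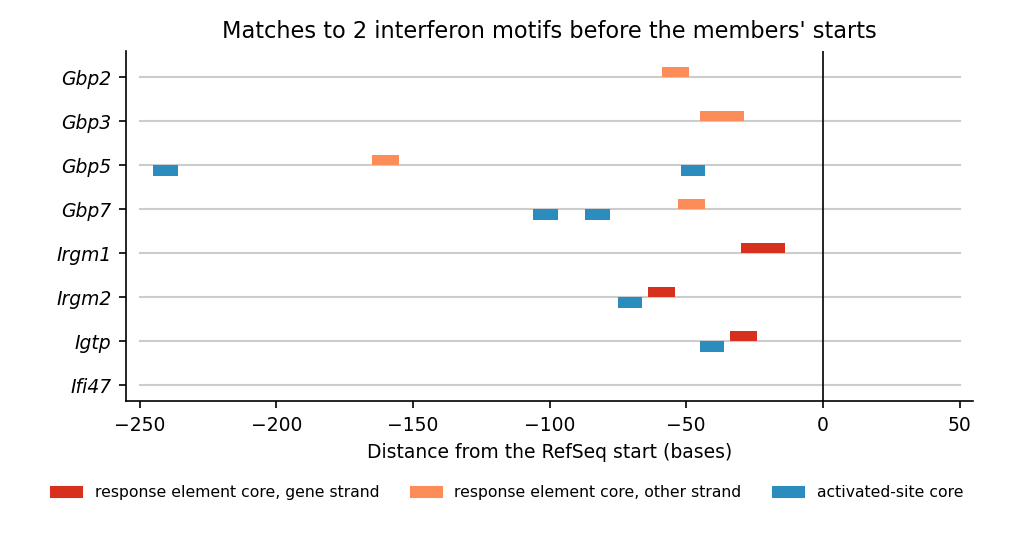
Positions of the motif matches in the windows of 8 members, as distance from the RefSeq start in bases (x axis). Red and orange bars are response element cores on the gene's strand and on the other strand, blue bars are activated-site cores; 7 of the 8 genes have a response element core, and Ifi47 has no match.

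The Control-ASO library held 14215397 gene counts and the AclyE14-ASO library 12751076. A mean of at least 1 FPKM (fragments scaled to gene length and library depth) was reached by 8658 genes, called expressed here, and by all 10 members. The targeted gene Acly stood at 13.3 FPKM in the control library and at 7.35 FPKM in the other. All 8 macrophage markers were expressed, while no lymphocyte marker of 10 and no dendritic cell marker of 6 was. Log2 ratios were taken on FPKM + 1, AclyE14-ASO over Control-ASO, and their median over expressed genes was -0.13, so a member at no difference sits above it. With 1 library a group there is no replicate check, no test and no p-value. Intervals are exact 95% intervals that cover counting error only, since 1 library a group does not show the spread between cultures or libraries. They take each count as a separate molecule. Amplified reads that carry no molecular identifier are not separate molecules, so the intervals may be too narrow. In bulk RNA, fewer cells of a type and less RNA per cell cannot be told apart.

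Among the members, 9 of the 10 were above 20 FPKM in both libraries and Gbp4 was below 5 FPKM. The 10 members summed to 1397 FPKM in the control library and to 1376 FPKM in the AclyE14-ASO library, a ratio of 0.984. By counts they made up 0.699% and 0.706% of the totals, a ratio of 1.01 (1.001 to 1.019). The direction of the small difference thus depended on the measure. At 1.5-fold or more on FPKM + 1, 0 of the 10 members were higher and 0 lower, while 15.5% of expressed genes passed that limit, 7.03% higher and 8.48% lower. A share of 15.5% would be between 1 and 2 genes of 10, so the count lies near the background. At 2-fold the count was 0 as well, against 4.72% of expressed genes, and at 1.5-fold among genes whose mean reached 5 FPKM it was 0 of 9, against 15.9%. Relative to the median gene the count was also 0 of 10, against 14.5% of expressed genes, 9.78% higher and 4.75% lower. There Gbp4, Iigp1 and Gbp7 lay just under the log2 limit of 0.585, at 0.573, 0.571 and 0.563. This 0 therefore rests on values close to the limit. The members' log2 ratios ran from -0.34 to 0.45 with a median of 0.01, and 65.5% of expressed genes had a ratio within that range.

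**Figure D2:**
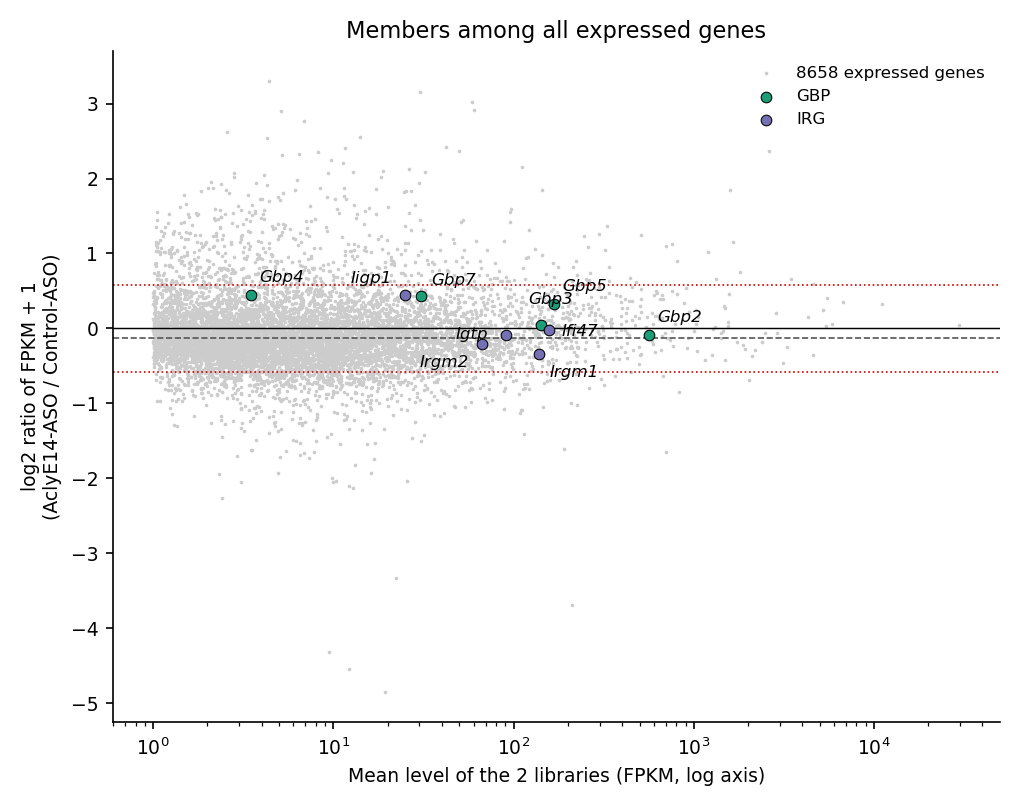
Log2 of the AclyE14-ASO level over the Control-ASO level, on FPKM + 1 (y axis), against the mean level of the 2 libraries in FPKM (x axis, log scale) for the 8658 expressed genes in grey, with GBP genes in green and IRG genes in purple. The dashed line is the median expressed gene and the dotted lines are 1.5-fold; all 10 members lie between the dotted lines.

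At a smaller limit the total of members passing lay near the background. With a limit of 25% of the lower level on FPKM + 1, 5 of the 10 members passed, against 40.9% of expressed genes. Gbp4, Gbp5, Gbp7 and Iigp1 were higher, 4 of 10 against 14.2%, and Irgm1 was lower, 1 of 10 against 26.7%. Relative to the median gene 4 members passed, against 35.6%, with the same 4 higher, against 19.9%, and 0 lower, against 15.7%. The counting interval left out no difference for 9 of the 10, against 66.0% of expressed genes, with 5 higher, against 21.7%, and 4 lower, against 44.2%. Ratios above that of the median gene, which by definition splits the expressed genes evenly, were seen in 8 of the 10. Members are 10 genes of 2 cultures and not replicates of a condition, so these shares describe the 2 libraries.

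Gbp2 was the most abundant member in both libraries. Gbp2 (ENSMUSG00000028270, chromosome 3, 142620602 to 142638008, plus strand, GRCm38), a GBP that coats vacuoles and bacteria, had 23438 counts or 583 FPKM in the control library and 19851 counts or 550 FPKM in the AclyE14-ASO library. It ranked 74 and 87 among all genes by FPKM and made up 41.7% of the summed level of the 10 genes in the control library. Its count ratio was 0.944 (interval 0.926 to 0.962), a log2 ratio of -0.08 that became positive when the ratios were centred on the median gene or scaled by TMM or DESeq2 factors. The near copy Gbp2b, with 2 and 1 counts, took almost none of these reads.

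Gbp5, which promotes inflammasome assembly as well as coat formation, had the highest count ratio among the 7 members above 50 FPKM in both libraries. Gbp5 (ENSMUSG00000105504, chromosome 3, 142493978 to 142522344, plus strand) was at 148 FPKM from 21022 counts and at 186 FPKM from 23714 counts. The count ratio was 1.26 (1.23 to 1.28), and its log2 ratio lay above those of 86.0% of expressed genes. Its response element core lies farther from the start, at -165 to -156, than those of the other 6 genes shown.

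Gbp3 and Gbp7 are neighbours of Gbp5 on the plus strand of chromosome 3 and encode further coat-forming GBP proteins. Gbp3 (ENSMUSG00000028268, 142560026 to 142573209) had 139 and 144 FPKM from 11967 and 11101 counts, a ratio of 1.03 (1.01 to 1.06). Gbp7 (ENSMUSG00000040253, 142530342 to 142550149) was at 25.8 and 35.2 FPKM from 2396 and 2937 counts, a ratio of 1.37 (1.29 to 1.44). These genes lie side by side, and the level of Gbp3 was hardly different while Gbp7 was higher. They are also near copies, with 3.75% of the 50-base windows of Gbp3 transcripts also in Gbp7 transcripts, and their summed counts had a ratio of 1.09 (1.06 to 1.12). Gm43802 covers 11.3% of the exonic length of Gbp7 on the same strand and was not among the gene rows, so it has no level here.

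Gbp4, of the second GBP cluster on chromosome 5, was scarce. Gbp4 (ENSMUSG00000079363, 105115767 to 105139586, minus strand) was at 2.80 FPKM from 354 counts and at 4.18 FPKM from 474 counts. Its count ratio of 1.49 (1.3 to 1.72) was the highest of the 10, but the log2 ratio on FPKM + 1 was 0.45, since the pseudocount understates a low gene. Of the 50-base windows of Gbp4 transcripts, 7.78% were also found in other genes. Its near copies and overlapping genes were Gbp6, Gbp8, Gbp9, Gbp10, Gbp11 and Gm43302. Summed with them, the ratio was 0.916 (0.880 to 0.954). Gbp4 made up 6.60% of that sum in the control library, so the summed ratio mostly describes the other genes. How shared reads were assigned among these genes is unknown here.

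All 3 genes of the regulatory IRGM class had count ratios per library total below 1, though Igtp lay above the median gene. Ratios below 1 were common, since 35.1% of expressed genes had a positive log2 ratio and the median count ratio was 0.896. The count of 3 of 3 is thus near the background. Irgm1 (ENSMUSG00000046879, chromosome 11, 48861968 to 48871683, minus strand), whose protein holds effector GTPases in check and sits on the cell's own membranes, was at 154 FPKM from 16002 counts and at 121 FPKM from 11302 counts. Its ratio of 0.787 (0.769 to 0.807) was the lowest of the 10 members, and its log2 ratio lay above those of 24.4% of expressed genes. Among the members Irgm1 shares the least sequence with other genes, with 0.379% of its 50-base windows found elsewhere.

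Irgm2 and Igtp are neighbours on the plus strand of chromosome 11. Irgm2 (ENSMUSG00000069874, 58199618 to 58222782) was at 72.0 and 62.0 FPKM from 7092 and 5477 counts, a ratio of 0.861 (0.831 to 0.892). Igtp (ENSMUSG00000078853, 58199556 to 58207591) was at 93.3 and 87.6 FPKM from 6791 and 5718 counts, a ratio of 0.939 (0.906 to 0.972). The pair shares 162 exonic bases and 11.8% of the 50-base windows of Igtp, so reads may be split between them, and their summed ratio was 0.899 (0.877 to 0.922). That interval holds the median count ratio of expressed genes, 0.896. Summed over Irgm1, Irgm2 and Igtp the counts had a ratio of 0.839 (0.825 to 0.854). Relative to the median gene, or under TMM or DESeq2 factors, Irgm1 and Irgm2 stayed below 0 on the log2 scale and Igtp did not.

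The effector IRG genes did not share a direction. Ifi47 (ENSMUSG00000078920, chromosome 11, 49076587 to 49096974, plus strand) was at 159 FPKM from 9398 counts and at 157 FPKM from 8305 counts. Its ratio of 0.985 (0.956 to 1.01) was the only one of the 10 whose counting interval included no difference, and its log2 ratio of -0.02 became positive under centring, TMM and DESeq2 factors. It overlaps Olfr56, which had 2 counts in each library. Iigp1 (ENSMUSG00000054072, chromosome 18) was at 20.9 FPKM from 929 counts and at 28.8 FPKM from 1148 counts, a ratio of 1.38 (1.26 to 1.5). With its near copy Gm4951 added, the Iigp1 ratio was 1.33 (1.23 to 1.44).

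**Figure D3:**
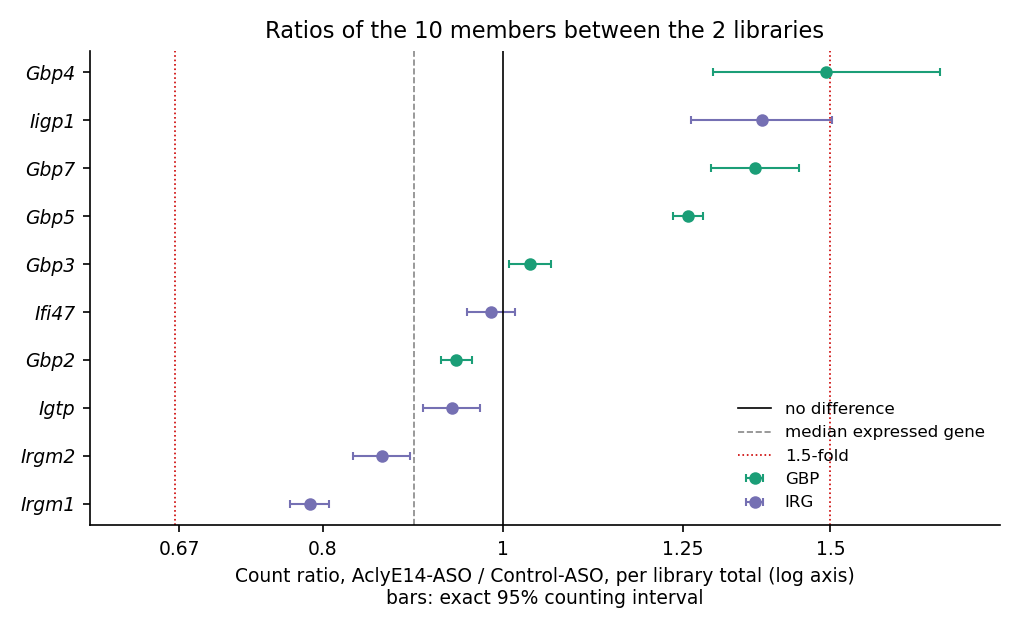
Count ratios per library total, AclyE14-ASO over Control-ASO (x axis, log scale), with exact 95% counting intervals for the 10 members, GBP in green and IRG in purple. The solid line is no difference, the dashed line the median count ratio of expressed genes and the dotted lines 1.5-fold; ratios run from 0.787 for Irgm1 to 1.49 for Gbp4.

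Set side by side, 4 of the 5 GBP genes and 1 of the 5 IRG genes had positive log2 ratios, against 35.1% of expressed genes. With centring, TMM or DESeq2 factors all 5 GBP genes and 3 of the 5 IRG genes had them. These scalings raised the ratios of all expressed genes, with the median expressed gene moving from -0.13 to 0.002, -0.05 and -0.04. Under TMM and DESeq2 factors low genes rose less, because the pseudocount was added after scaling. Centring used the median of genes whose mean reached 5 FPKM. Under centring expressed genes split close to evenly between positive and negative ratios by construction. The exact share with positive ratios under these scalings was not computed. The GBP median was 0.33 and the IRG median -0.09, and the latter turned to 0.04 under centring and to 0.01 under TMM and DESeq2 factors. Summed GBP counts had a ratio of 1.09 (1.08 to 1.11) and summed IRG counts one of 0.886 (0.873 to 0.899). The median count ratio of expressed genes was 0.896, which lies within the IRG interval and below the GBP interval. Summed GBP levels were 898 and 919 FPKM and summed IRG levels 499 and 456 FPKM. The families overlapped, because Iigp1 lay among the higher GBP genes and Gbp2 among the lower IRG genes, and the difference between the families was not tested.

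The order of the levels was alike in the 2 libraries at both ends and differed in the middle. In the control library Gbp2 was followed by Ifi47, Irgm1, Gbp5 and Gbp3, within 159 to 139 FPKM, then by Igtp, Irgm2, Gbp7, Iigp1 and Gbp4. Only Ifi47 and Irgm1 had overlapping counting intervals among neighbours in that order. In the AclyE14-ASO library Gbp5 stood second, followed by Ifi47, Gbp3 and Irgm1, within 186 to 121 FPKM, and no neighbours overlapped. Levels of different genes depend on the length used. The length behind the deposited FPKM was 1.12 times the GENCODE M21 exonic length for Gbp2, 2.53 times for Igtp and 0.536 times for Iigp1, with a median of 1.22 over 8460 expressed genes. Per GENCODE exonic length Gbp2 was still the highest and Gbp7, Iigp1 and Gbp4 still the 3 lowest, but the middle order changed in both libraries. In the control library Irgm1 moved from place 3 to 6, Gbp3 from 5 to 3, Igtp from 6 to 4 and Gbp5 from 4 to 5. Count ratios between the libraries do not depend on this length. Log2 ratios on FPKM + 1 do so through the pseudocount, and so does the limit of 1 FPKM.

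**Figure D4:**
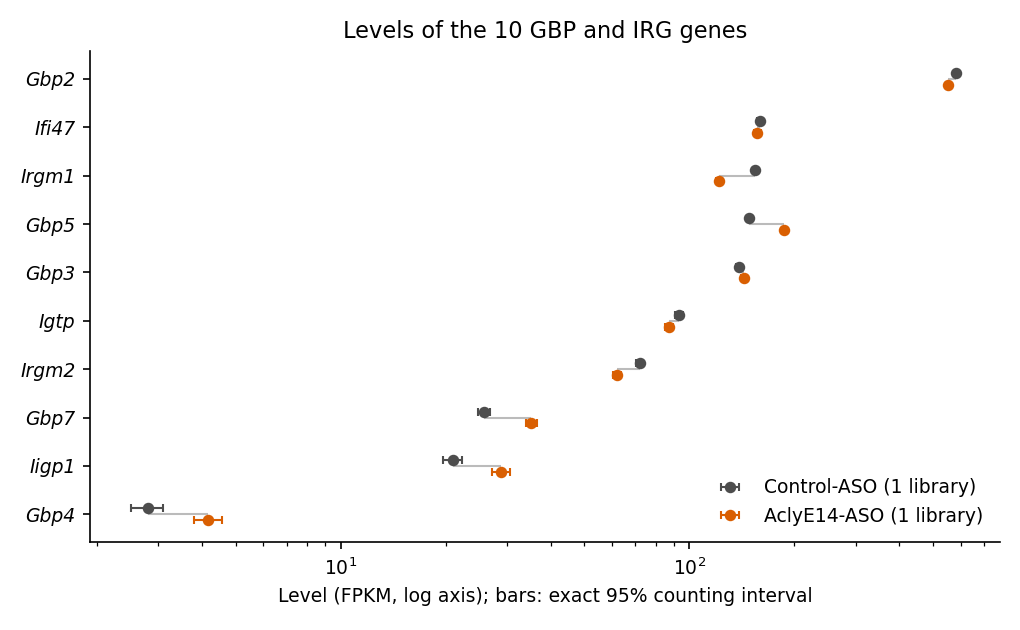
Level of each of the 10 members in FPKM (x axis, log scale) in the Control-ASO library (grey) and the AclyE14-ASO library (orange), with exact 95% counting intervals. The members span 2.80 to 583 FPKM in the control library, and the paired points lie close together for each gene.

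The rest of the GBP and IRG families was described through lists of 7 and 10 further genes, of which 6 and 9 were matched by symbol. For 5830443L24Rik and Gm12250 no match was found, so their levels are unknown here. Of the other GBP genes 2 were expressed, and 0 passed 1.5-fold. Gbp6 had levels of 17.8 and 13.6 FPKM and a ratio of 0.767 (0.718 to 0.818), and Gbp9 at 7.92 and 9.30 FPKM, a ratio of 1.17 (1.08 to 1.28). Gm43302, with 1609 and 1186 counts, covers 29.0% of the exonic length of Gbp6, and the summed ratio of these 2 genes was 0.790 (0.752 to 0.830). Of the other IRG genes 6 were expressed, 0 passed 1.5-fold and the median log2 ratio was 0.07. The T-cell-specific GTPase genes Tgtp1 and Tgtp2, near copies of each other, were at 62.8 and 63.2 FPKM and at 86.9 and 83.7 FPKM. Gm5431 had levels of 31.2 and 23.1 FPKM and a ratio of 0.740 (0.701 to 0.781). Irgq, chosen here after its value was seen, had levels of 3.01 and 4.87 FPKM and a count ratio of 1.62 (1.38 to 1.91) that is under 1.5-fold on FPKM + 1. Under centring, TMM, DESeq2 factors, CPM and a pseudocount of 0.1, 1 gene of this list was past 1.5-fold. Among 6 expressed dynamin-like GTPases of other families, 0 passed 1.5-fold and the median was -0.25. The antiviral Mx1, the most abundant of them, was at 143 and 133 FPKM.

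Signalling upstream of the members was measured for 19 of 20 listed genes, with 1 higher, 2 lower and 16 between and a median log2 ratio of -0.14. Ifnb1, the type I interferon gene that LPS induces, was at 172 and 155 FPKM. Ifng, the gene of interferon gamma, had 0 and 1 counts, and the lymphocyte markers Cd3e, Cd3d, Cd8a, Ncr1, Klrb1c and Gzmb were at 0 in both libraries. Stat2 was at 134 and 131 FPKM and Irf1 at 147 and 128 FPKM, both transcription factors of interferon responses and both within 1.5-fold. Irf9, a DNA-binding factor of type I interferon responses, was lower at 24 and 13.9 FPKM, a ratio of 0.578 (0.543 to 0.615). Rnf31 overlaps 2.28% of the exonic bases of Irf9. With all counts of Rnf31 added, 1669 and 1539, the ratio was 0.742 (0.708 to 0.776), which describes both genes together. The feedback inhibitor Socs1 was lower (50.5 and 22.2 FPKM) and Socs3, an inhibitor of IL-6 family signalling, higher (116 and 214 FPKM). Usp18, which dampens the type I interferon receptor, was the most abundant of the list at 278 and 262 FPKM.

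Lists of genes that act with the GBP and IRG proteins are read against the 15.5% of expressed genes past 1.5-fold. The caspase-11 and inflammasome list, with all 10 genes expressed, had 2 higher, 0 lower and a median of 0.06. Casp4, which encodes caspase-11, was at 39.0 and 40.1 FPKM, Casp1 at 122 and 111 FPKM, the pore-former Gsdmd at 62.3 and 66.3 FPKM and the DNA sensor Aim2 at 14.6 and 11.5 FPKM. The higher genes were the cytokines Il1b (696 and 2495 FPKM) and Il18 (7.78 and 13.1 FPKM), which are substrates of caspase-1 and not partners of the GTPases. With a pseudocount of 5, 1 of these calls was lost.

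ATG8 conjugation, which directs GBP and IRG proteins to vacuoles, and ubiquitin partners made a list of 14 genes, of which 0 were higher and 1 was lower, with a median of -0.25. Trim21, a ubiquitin ligase, was lower at 114 and 65.3 FPKM, and the ubiquitin-binding Sqstm1, the most abundant, was at 384 and 355 FPKM. Prenylation and isoprenoid supply had 9 expressed genes of 10, with 0 higher, 2 lower and a median of -0.25. Both calls were lost under centring, TMM, DESeq2 factors and a pseudocount of 5. The mevalonate pathway genes Mvd (10.4 and 6.5 FPKM) and Idi1 (157 and 69 counts) were the genes called lower, and the farnesyltransferase subunit gene Fnta, the most abundant, was at 17.3 and 14.4 FPKM.

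**Figure D5:**
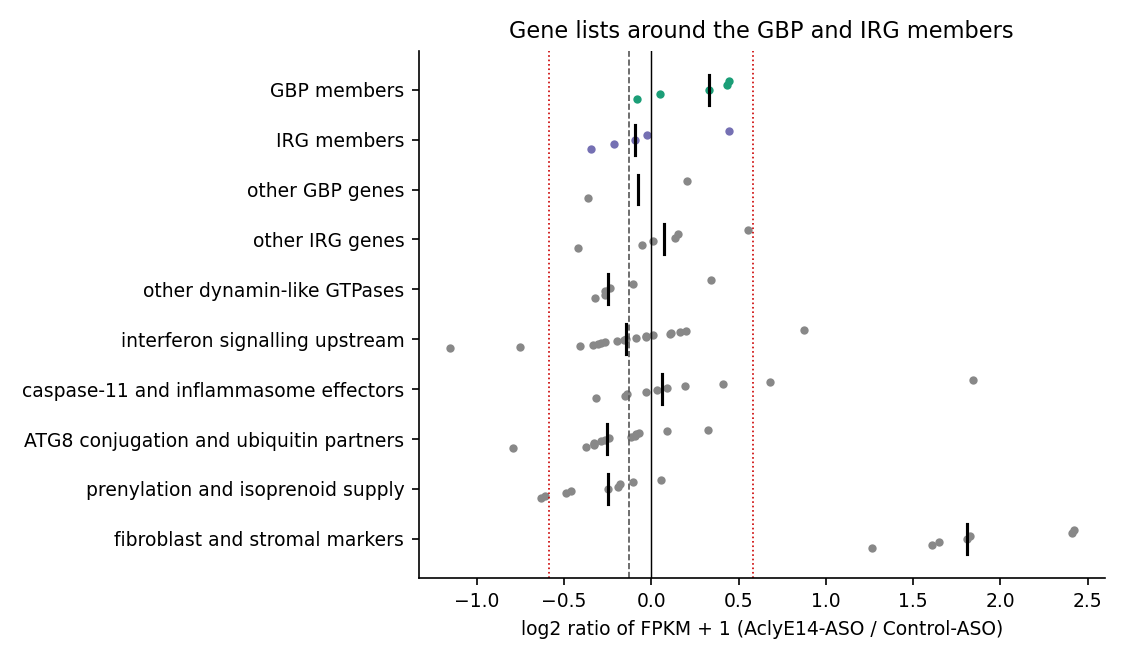
Log2 of the AclyE14-ASO level over the Control-ASO level on FPKM + 1 (x axis) of the expressed genes of each list (points), with the list median as a black bar. The solid line is no difference, the dashed line the median expressed gene and the dotted lines 1.5-fold; the GBP and IRG members lie within 1.5-fold, and the fibroblast and stromal markers lie above it.

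Markers of another cell type differed between the same libraries. All 7 expressed fibroblast and stromal markers of 10 were higher in the AclyE14-ASO library, with a median of 1.81 and summed levels of 49.1 and 213 FPKM, and 0 of the 10 were at 0 counts in both libraries. They were Col1a1, Col1a2, Dcn, Sparc, Acta2, Pdgfra and Tagln, the most abundant, at 12.6 and 71.9 FPKM. Of 9 neutrophil markers 2 were expressed, S100a8 (19.7 and 41.4 FPKM) and Csf3r (4.17 and 6.58 FPKM), 4 were at 0 in both, and the summed levels were 24 and 48.1 FPKM. Of the 8 macrophage markers 3 were higher, 1 lower and 4 between, with a median of 0.24 and summed levels of 12089 and 15387 FPKM. Itgam (9.12 and 43.2 FPKM), Fcgr1 (34.7 and 68.2 FPKM) and Cd14 (1020 and 2270 FPKM) were higher and Cd68 (1059 and 590 FPKM) lower. The most abundant, Lyz2, was at 9798 and 12276 FPKM. The part of these markers in the members' ratios was not tested.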

How the data were processed

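RNA from 1 Control-ASO and 1 AclyE14-ASO culture was sequenced. Per the file headers, the authors deposited counts and FPKM of each gene, and the values show whole unscaled counts. The submitters' processing notes name mm10, HISAT2, edgeR and StringTie 1.3.0, with no role. Per count, FPKM differed between the libraries by 1.1148 to 1.1149 times among genes above 20 counts in both, and the totals by 1.115 times, so the authors' FPKM was scaled to summed gene counts. Whether counting used the strand is unknown here.

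Symbols came from GENCODE M21 for 34267 identifiers. The log2 ratio used FPKM with a pseudocount of 1, over genes whose mean reached 1 FPKM. Count ratios per library total have Clopper-Pearson 95% intervals. Higher or lower means 1.5-fold on FPKM + 1. The members, the lists and the limits were chosen with earlier results of these data known. Named were all members and, per list, genes past 1.5-fold, the most abundant gene and direct partners, of which 1 is not reported here. Promoter sequences are from RefSeq. Protein sequences were not used here. Near copies share at least 1% of 50-base windows of GENCODE transcripts or exonic bases.

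Alternatives were pseudocounts of 0.1 and 5, centring, TMM (edgeR 4.0.16) and DESeq2 1.42.0 size factors, CPM computed from the deposited counts, other expression limits, limits of 25% and 2-fold, and other totals. Calculations used Python 3.11.15, SciPy 1.17.1 and R 4.3.3 and were tested on simulated counts.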

Additional observations from a re-analysis of the deposited data

How the results depend on the processing

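The count of members past 1.5-fold was 0 under each pseudocount, scaling and expression limit and at 2-fold, and 5 with a limit of 25%. With centring the highest member ratio, 0.575, was close to the log2 limit of 0.585. The median of the members, 0.01, was 0.14 with centring on the median gene, 0.11 with TMM factors and 0.12 with DESeq2 size factors, and the lowest member ratio, -0.34, was -0.21, -0.24 and -0.24. Under these scalings 8 of 10 members had positive ratios, against 5 before them, when 35.1% of expressed genes had one. The median expressed gene moved as well, from -0.13 to 0.002, -0.05 and -0.04, so more of the expressed genes were positive too. With centring their split is close to even by construction. The exact shares were not computed. With a mean of at least 5 FPKM, which leaves out Gbp4, the median was -0.02. Gbp4 passed 1.5-fold by counts, at 1.53, when the 20 most abundant genes were left out of the totals. Without Gbp2, chosen after seeing the data, the summed FPKM ratio was 1.01, against 0.984 with it; the GENCODE lengths were chosen after seeing the data too.

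Over all genes, 1343 passed 1.5-fold, 609 higher and 734 lower. This was 545 (287 and 258) with a pseudocount of 5, 753 (298 and 455) at 5 FPKM, 409 (275 and 134) at 2-fold and 3542 (1232 and 2310) with a limit of 25%. A pseudocount of 0.1 gave 1184 lower genes. Centring gave 406 lower genes and moved the higher share of these calls from 45.3% to 67.7%. The cause was not tested. No paired analysis was possible because each group had 1 library, and for the same reason no replicate could be left out.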
